A study of Mus musculus with 16 samples.

Results

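Gm15441 is a long non-coding RNA gene of mouse chromosome 3 whose interval, 96.5558 to 96.5668 Mb on the minus strand of GRCm38 (11037 bases), holds the whole of Txnip on the opposite strand. Its level in the liver was compared across 4 diet groups. All listed transcripts that overlap this interval were taken, which gave 3 of the 51024 transcripts in the deposited lists. A long transcript (ENSMUST00000107095) and a short one (ENSMUST00000098839) are Ensembl transcripts of the gene (ENSMUSG00000074398), and their values were summed as Gm15441. NONMMUT044301.2, the third transcript, is a single-interval entry of the NONCODE catalogue. The gene was chosen with its values on high-fat and on ordinary feed known, so its levels in those groups are a description and carry no test.

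The study sequenced liver RNA of C57BL/6J mice, labelled postnatal day 21, in 4 groups of 4 libraries. One group received ordinary feed and another high-fat feed. A further group on high-fat feed was gavaged with resveratrol, a polyphenol of plants, at 100 mg/kg/day, and the last, also on high-fat feed, with the antidiabetic drug metformin at 200 mg/kg/day. The labels do not say whether the day refers to collection or to the start of feeding, and they give no sex, feeding length, fasting state or hour of collection. They name no gavaged control on high-fat feed, so gavage and drug cannot be told apart in a comparison with high-fat feed alone. The labels also do not say that the 4 libraries of a group came from separate animals, so p-values measure the spread between these libraries. The sample titles carry numbers whose meaning is not given, and the 4 high-fat titles, unlike those of each other group, share a single prefix.

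Txnip encodes thioredoxin-interacting protein, which binds thioredoxin, limits glucose uptake and has been linked to activation of the NLRP3 inflammasome. Its transcription is raised by glucose through the paired factors ChREBP or MondoA and Mlx. Gm15441 has been described in mouse liver as a transcript that depends on PPARα, the nuclear receptor of fatty acid oxidation, that is induced by fasting, and that lowers Txnip. No coding transcript of Txnip is in the deposited lists (0 listed), so the sense messenger RNA was not analysed here.

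The exons of the Gm15441 transcripts show how each one meets Txnip, whose own interval is 96557957 to 96561883. The long transcript has 4 exons and 1653 bases, and starts 4.92 kb past the end of Txnip. Of its bases, 606 (36.7%) lie in Txnip exons and 327 (19.8%) in Txnip coding sequence, which is 27.5% of the 1191 coding bases. Its exon 2 (96559678 to 96559842, 165 bases) lies wholly in a Txnip coding exon, and its exon 3 (96557286 to 96558397, 1112 bases) crosses the Txnip start and takes in the whole 250 bases upstream of it. The short transcript has 3 exons and 659 bases and starts 142 bases upstream of the Txnip start. None of its bases (0) lies in a Txnip exon, and 636 are shared with the long transcript, which leaves 23 of its own. The following are shown because they mark where the antisense RNAs lie on Txnip coding sequence and on its promoter. They are exon 2 of the long transcript (chr3:96559678-96559842, minus strand, all in capitals, as all of it is complementary to Txnip coding sequence) and exon 1 of the short transcript (chr3:96557756-96557815, minus strand), each 5′ to 3′ as the RNA reads, from the GENCODE M21 transcripts.
Long transcript exon 2: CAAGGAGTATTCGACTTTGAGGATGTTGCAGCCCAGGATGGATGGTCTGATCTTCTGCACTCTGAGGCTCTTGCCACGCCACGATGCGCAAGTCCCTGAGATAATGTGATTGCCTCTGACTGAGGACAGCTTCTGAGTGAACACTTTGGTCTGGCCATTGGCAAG
Short transcript exon 1: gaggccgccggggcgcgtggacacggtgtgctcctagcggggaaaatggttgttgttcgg

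The reverse complement of exon 1 of the short transcript lies inside the Txnip promoter. The 250 bases upstream of the Txnip start (chr3:96557707-96557956, plus strand, from RefSeq, GRCm38.p6) are printed with the motif matches in capitals, which from 5′ to 3′ are the minus-strand CCAAT box, the FOXO motif, the plus-strand CCAAT box and a pair of CACGAG with 5 bases between.
Txnip promoter: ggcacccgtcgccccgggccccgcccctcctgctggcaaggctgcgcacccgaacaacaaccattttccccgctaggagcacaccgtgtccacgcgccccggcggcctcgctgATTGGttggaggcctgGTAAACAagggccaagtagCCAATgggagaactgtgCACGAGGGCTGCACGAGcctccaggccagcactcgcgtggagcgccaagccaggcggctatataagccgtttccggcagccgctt

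Motifs were searched on both strands of 300 bases, 250 before and 50 after each start, in 32851 RefSeq promoters. The pair of CACGAG, at 85 to 69 bases upstream, is known as the carbohydrate response element of Txnip, bound by MondoA or ChREBP with Mlx. It was searched after the sequence had been seen, and it occurred in 1 of the 32851 promoters (0.00304%), that of Txnip. A single CACGAG occurred in 6.47% of them. CCAAT, the motif of the factor NF-Y, was found on the plus strand at 102 to 98 and on the minus strand (as ATTGG) at 137 to 133 bases upstream, and 37.4% of promoters hold it. TGTTTAC, a FOXO motif, was found on the minus strand at 121 to 115 bases upstream, and 3.65% of promoters hold it. The nuclear receptor motif AGGTCA (16.3% of promoters), a direct repeat of it with 1 base between as PPARα binds (13 promoters, 0.0396%), the E-box CACGTG (7.15%), a pair of CACGTG with 5 bases between (0 promoters) and TATAAA (13.6%) are not in this window as these letters. Variants of TATAAA were not searched, and the printed sequence holds tatataag close to the Txnip start, so absence of a TATA box is not shown. CACGAG shares no base with the other matches. A match is a description of letters, and the promoter of Gm15441 itself was not analysed here.

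**Figure D1:**
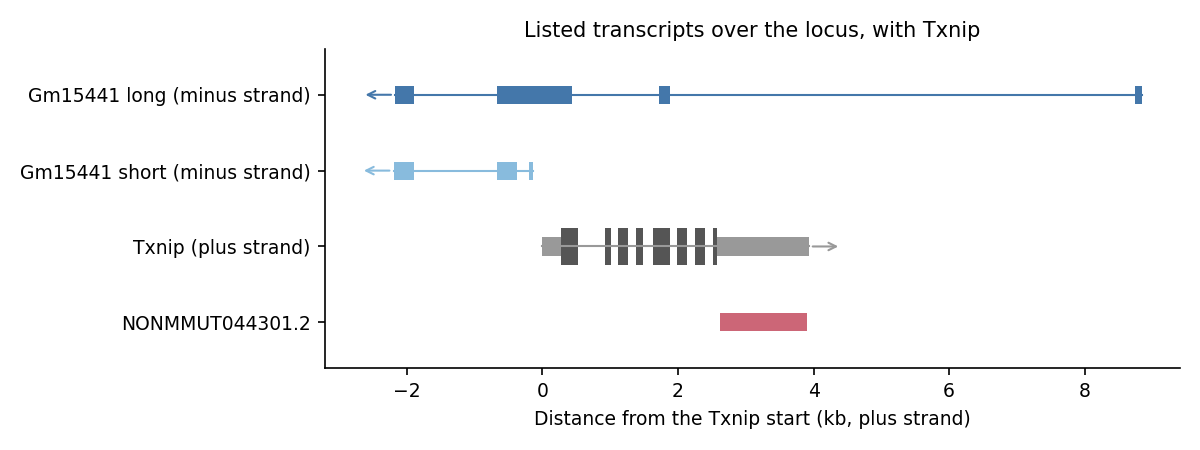
Listed transcripts over the locus, with Txnip, against distance from the Txnip start in kb along the plus strand. Boxes are exons (for Txnip, tall boxes are coding and low boxes untranslated) and arrows show the direction of transcription. The long Gm15441 transcript runs across Txnip from 8.84 kb downstream of its start, the short one begins 142 bases upstream of that start, and NONMMUT044301.2, whose strand the files do not give, lies in the last exon of Txnip.

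Values are FPKM, the fragment count of a transcript scaled to its length and to the mapped reads of its library, as the authors deposited them, so they can be compared between transcripts of different length. Depth was 17.2 to 31.1 M reads a library. All listed values except those of the highest read counts, which were not checked, were whole numbers of reads to within 0.05 reads. The reads behind the checked values, which include every value of the locus, are thus known. High-fat library 4 stood apart. Its features had a median ratio of 0.691 to an average library, where the others ranged from 0.885 to 1.15, and it held 4286 features of 1 FPKM or more, where the others held 5169 to 6505. Of 16 markers of hepatocytes and other liver cells, 2 (the hepatocyte gene Serpina1a and the stellate-cell gene Reln) had a listed feature over them at a testable level, because the lists hold non-coding transcripts. The labelled tissue could therefore not be checked from defining markers such as albumin, and in whole liver fewer cells of a type and less RNA per cell cannot be told apart.

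Gm15441 was highest on ordinary feed. Its 4 ordinary-feed libraries had 30.3, 5.54, 36.2 and 24.5 FPKM (854, 229, 1249 and 805 reads), a mean of 24.2 ± 13.3 (SD, n = 4). Library 2 of that group stood far below the other three. Its depth, 25.7 M reads, and its median ratio, 1.12, were within the range of the other libraries. Its 4 high-fat libraries had 2.16, 5.11, 3.39 and 2.85 FPKM (81, 263, 122 and 99 reads), a mean of 3.38 ± 1.26 (SD, n = 4). Every high-fat value was below every ordinary-feed value, but the closest pair, 5.11 and 5.54, nearly met. For the long transcript, which carries nearly all the reads, the exact Poisson 95% intervals of those libraries were 4.51 to 5.77 and 4.63 to 6.05 FPKM, which overlap (intervals cover counting error only). After scaling each library by its median ratio the groups overlapped, as high-fat library 2 had 5.42 and ordinary-feed library 2 had 4.94.

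With high-fat feed and resveratrol the libraries had 4.20, 8.43, 8.69 and 2.75 FPKM (147, 334, 290 and 104 reads), a mean of 6.02 ± 3.00 (SD, n = 4). Libraries 2 and 3 were above every high-fat library and above ordinary-feed library 2, while libraries 1 and 4 lay within the high-fat range. With high-fat feed and metformin the libraries had 1.90, 1.51, 3.49 and 3.92 FPKM (74, 44, 133 and 138 reads), a mean of 2.70 ± 1.18 (SD, n = 4). Libraries 1 and 2 were below every high-fat library, and all 4 were below the lowest ordinary-feed library with either scaling. The order of the means was ordinary feed, resveratrol, high fat, metformin. Neighbouring groups in that order overlapped in each case. Ordinary feed and resveratrol overlapped through ordinary-feed library 2 alone, which was below 2 of the 4 resveratrol libraries.

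**Figure D2:**
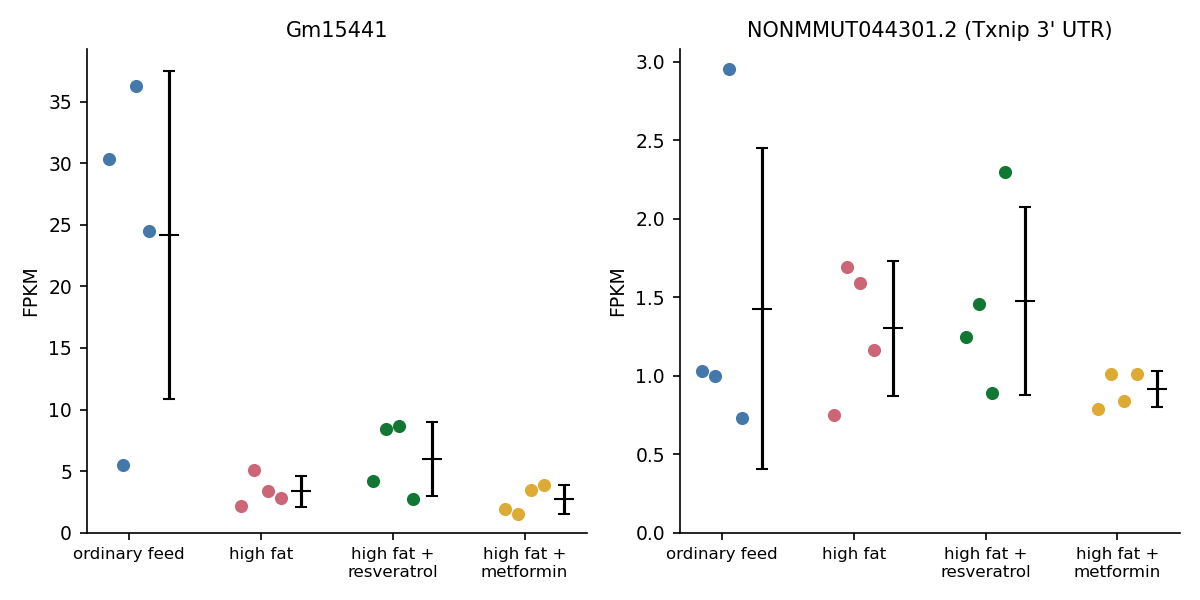
FPKM of Gm15441 (left) and of NONMMUT044301.2 (right) in each of the 16 libraries, by diet group. Points are libraries and the bar beside each group is its mean ± SD (n = 4). On the left, 3 of the 4 ordinary-feed points lie at 24.5 FPKM or more and every other library at 8.69 or less, while on the right the 4 groups overlap and ordinary-feed library 3 stands out at 2.95.

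The mean on ordinary feed was 7.15 times that on high-fat feed. On the log2(FPKM + 1) scale, used for all differences below, high fat minus ordinary feed was -2.30 (SE 0.47). For all 7413 tested features the median of that difference was -0.16. It became -0.0015 after median-ratio scaling, where Gm15441 differed by -2.06. The difference grew to -2.87 without ordinary-feed library 2 and shrank to -2.03 without ordinary-feed library 3. The median ratio of a library, the measure by which high-fat library 4 stood apart, had a correlation of 0.39 with Gm15441 over the 16 libraries and -0.14 within groups, and without high-fat library 4 the Gm15441 difference was -2.26. As background, limma adjusted by Benjamini-Hochberg over all 7413 features called 2.83% of them higher and 11.8% lower on high-fat feed (210 and 875 features, which became 447 and 366 with median-ratio scaling and 338 and 383 with quantile normalization), but Gm15441 was chosen from this contrast and nothing is read from its place there.

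The drug groups were read against the same high-fat and ordinary-feed libraries, so these comparisons share samples with the one above. Resveratrol minus high fat was 0.61 (SE 0.47, 95% interval -0.40 to 1.62), with 12 of 16 pairs of libraries higher on resveratrol. Metformin minus high fat was -0.26 (SE 0.47, -1.27 to 0.76), with 6 of 16 pairs higher on metformin. Both intervals include 0. Against ordinary feed, the resveratrol group differed by -1.69 (SE 0.47) and the metformin group by -2.56 (SE 0.47). Few features were called in the drug comparisons at all: with resveratrol 0.0674% were higher and 0.0135% lower than on high-fat feed, and with metformin 0.0135% were higher and 0.0135% lower. That balance turned with the scaling: resveratrol had 5 features higher and 1 lower, but 3 and 10 with median-ratio scaling or quantile normalization, and metformin had 1 and 1, but 1 and 7 with the former and 1 and 6 with the latter.

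Resveratrol against metformin, both on high-fat feed, is the comparison that did not enter the choice of the gene. Gm15441 was 2.22 times as high with resveratrol by the group means, and 14 of 16 pairs of libraries were higher. The log2 difference was 0.87 (SE 0.47, 95% interval -0.15 to 1.88) and did not pass the test (limma adjusted p = 0.79; exact two-sided permutation p = 0.114). The interval covers differences from slightly below 0 to nearly 2 log2 units, so the test does not show that the drug groups were alike. Over all features the same fit called 0% higher and 0% lower, with 471 at an unadjusted p under 0.05.

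The level of Gm15441 among other non-coding features followed the same order. By mean FPKM it was 152nd of 7413 tested features on ordinary feed, 826th with resveratrol, 1353rd on high fat and 1797th with metformin. Among the 897 tested Ensembl genes it was 42nd on ordinary feed and 232nd with metformin. It also varied more within groups than most features did. Its SD within groups was 0.73 on the log2 scale, above that of 93.6% of tested features, whose median was 0.24. The log2(FPKM + 1) scale narrows the spread of low features, and Gm15441 was not compared with features of like level.

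Nearly all reads of the gene were assigned to the long transcript. The short one, which starts beside the Txnip promoter, received 41 of the 4966 reads of both transcripts, a share of 0.826% (Clopper-Pearson 95% interval 0.593% to 1.12%, which pools reads over libraries and covers counting error only). It had 7, 4, 6 and 7 reads on ordinary feed and 0, 0, 4 and 3 on high-fat feed. With resveratrol it had 0, 0, 6 and 0 reads, and with metformin 0, 0, 0 and 4. It was thus present in 8 of 16 libraries, the 4 on ordinary feed among them. Its share of the gene's reads was 0.765% on ordinary feed, 1.24% on high fat, 0.686% with resveratrol and 1.03% with metformin. Each share pools the reads of a group's libraries, and with resveratrol and with metformin all the short transcript's reads came from 1 library, so the shares were not compared. Where no read was listed, 3 reads would have been 0.146 FPKM or more, depending on depth, so presence below that level was not detectable. As 636 of its 659 bases are also in the long transcript, few reads can mark the short transcript alone. The long transcript has 1017 of its 1653 bases outside the exons of the short one. The split of reads in the shared bases is the authors' assignment.

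NONMMUT044301.2 (chromosome 3, 96560572 to 96561862, 1291 bases) lies wholly inside the 3′ UTR of Txnip, which is 1357 bases long, and has no base (0) in a Gm15441 exon. Its strand is not given and neither is that of the counting, so its reads may come from Txnip messenger RNA, and reads in the exons that the long transcript shares with Txnip cannot be assigned to one strand. It had 1.03, 0.996, 2.95 and 0.731 FPKM on ordinary feed, a mean of 1.43 ± 1.02 (SD, n = 4). It had 0.752, 1.69, 1.59 and 1.16 on high-fat feed, a mean of 1.30 ± 0.432 (SD, n = 4). These groups overlapped, with the high-fat library higher in 10 of 16 pairs, and ordinary-feed library 3 alone was above all high-fat libraries. With resveratrol it had 1.24, 1.45, 0.893 and 2.30 FPKM (1.47 ± 0.598, SD, n = 4), and with metformin 0.790, 1.01, 0.840 and 1.01 (0.913 ± 0.115, SD, n = 4). The metformin libraries had the smallest SD, and 2 of them (libraries 1 and 3) were below every resveratrol library.

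High fat minus ordinary feed was -0.02 for NONMMUT044301.2 (SE 0.23, 95% interval -0.51 to 0.47), and 0.14 after median-ratio scaling. Resveratrol minus metformin was 0.34 (SE 0.23, 95% interval -0.15 to 0.83; limma adjusted p = 0.805, exact two-sided permutation p = 0.0857). Each value rests on 19 to 80 reads, which limits its precision.

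The antisense transcript and the UTR transcript can be set against each other within each library, where depth cancels. The ratio of the long Gm15441 transcript to NONMMUT044301.2 in FPKM was 28.8, 5.32, 12.1 and 32.8 on ordinary feed and 2.88, 3.02, 1.96 and 2.27 on high-fat feed. These groups did not overlap, but the gene in the numerator was chosen with its values in them known, so this is a description. The ratio was 3.38, 5.80, 9.24 and 1.19 with resveratrol and 2.41, 1.49, 4.15 and 3.61 with metformin, so that with resveratrol it spanned both the lowest of all 16 values and values within the ordinary-feed range. A ratio alone shows unequal levels and not which transcript differs. High fat minus ordinary feed, on the log2 scale, was -2.30 for Gm15441 and -0.02 for NONMMUT044301.2. Over the 16 libraries the Pearson correlation of their log2 levels was 0.25 (Spearman 0.16), it was 0.19 for deviations from the group means, and it was -0.16 without ordinary-feed library 3, which was highest for both.

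**Figure D3:**
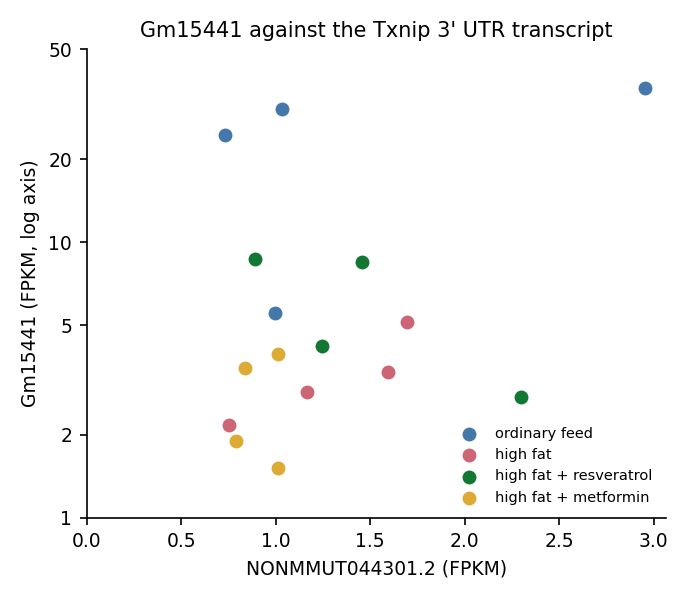
Gm15441 (log axis) against NONMMUT044301.2 (linear axis), both in FPKM, with 1 point for each of 16 libraries coloured by diet group. The ordinary-feed points lie highest except library 2 at 5.54 FPKM of Gm15441, and ordinary-feed library 3 lies apart at the upper right. Along the horizontal axis the groups are mixed.

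Features whose levels moved most like those of Gm15441 were ranked by the Pearson correlation of log2(FPKM + 1) over 16 libraries, among 6032 features outside the locus with a mean of at least 1 FPKM. The median correlation was 0.17, and 11 features passed 0.8. The points share libraries and diet groups, so the correlations are descriptions. The highest was NONMMUT015990.2, over Klc1, a kinesin light chain, and Xrcc3, a DNA repair gene (r = 0.88, 0.65 within groups and 0.75 over the 12 libraries on high-fat feed with or without a drug). It had 3.36 ± 0.456 FPKM on ordinary feed, 2.44 ± 0.0272 on high fat, 2.82 ± 0.375 under resveratrol and 2.42 ± 0.191 under metformin (SD, n = 4 each), which is the order of Gm15441 over a far smaller range. NONMMUT010685.2, over the serine racemase gene Srr, followed (r = 0.85), and it was also the highest within groups (0.89). Its level was 5.17 ± 0.798 FPKM on ordinary feed, 3.81 ± 0.102 on high fat, 4.32 ± 0.588 under resveratrol and 4.36 ± 0.273 under metformin (SD, n = 4 each).

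The others among the 8 highest were Gm48601 over the phosphatase gene Ptprg (r = 0.85), NONMMUT017610.2 over Simc1 (0.83), NONMMUT008792.2 over the trafficking gene Aftph (0.83), NONMMUT012935.2 over the thymidine kinase gene Tk1 (0.83), Gm38190 over Tiprl (0.82) and NONMMUT028627.2 over Pdpk1, the kinase that activates Akt (0.82). Without the 2 libraries farthest from the Gm15441 median (ordinary-feed libraries 1 and 3) their correlations were 0.63 to 0.89. In all 8, ordinary-feed library 2 was the lowest library of its group, as it was for Gm15441, which the ranking by correlation favours.

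The within-group ranking, which does not use the differences between diets, gave 4 further features after that of Srr. These were NONMMUT140630.1, beside the importin gene Kpnb1 (0.84), NONMMUT041012.2 over Ttpal (0.80), Gm17251 over the small GTPase gene Rab11b (0.79) and NONMMUT066365.2 over 1700067K01Rik (0.79). Ordinary-feed library 2 was again the lowest of its group in all 5. The extreme case was NONMMUT041012.2, which had 0.105 FPKM in that library and up to 8.51 in the others of the group. That transcript's correlation over all 16 libraries was 0.07.

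In the opposite direction, NONMMUT053214.2 over the anthrax toxin receptor gene Antxr2 had the lowest correlation (r = -0.89, Spearman -0.91). It had 4.99 ± 0.628 FPKM on ordinary feed and 7.28 ± 0.721 on high fat, 7.14 ± 1.24 under resveratrol and 7.51 ± 1.69 under metformin (SD, n = 4 each). NONMMUT003114.2, an intergenic transcript, came next (r = -0.83), with 2.33 ± 0.530 FPKM on ordinary feed and 20.4 ± 9.65 on high fat (SD, n = 4 each). NONMMUT011946.2 over Igfbp4, which binds insulin-like growth factors (-0.83), and NONMMUT013175.2 over Narf (-0.82) completed the 4. Their levels on ordinary feed were below those in each of the 3 high-fat groups by mean.

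**Figure D4:**
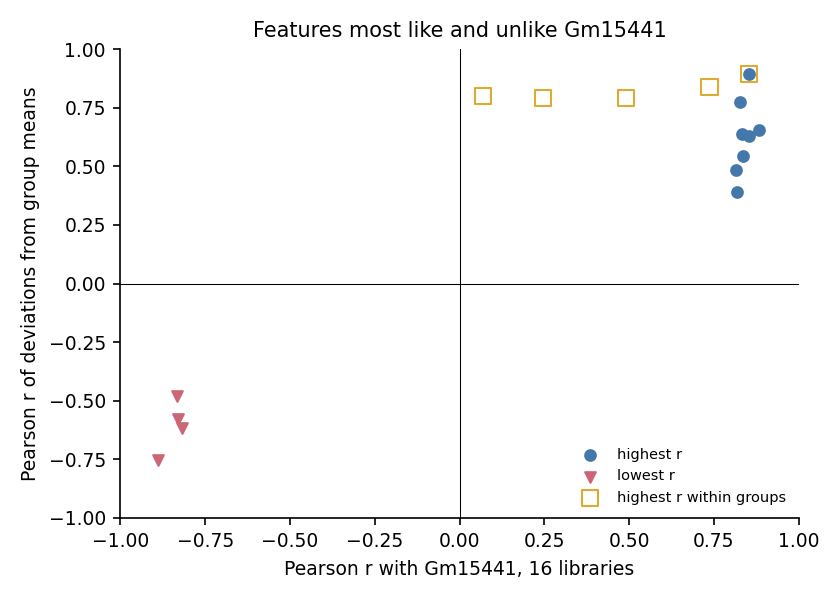
Pearson correlation with Gm15441 of deviations from the group means (vertical) against the Pearson correlation over all 16 libraries (horizontal), both without unit, for the features of highest r, of lowest r and of highest r within groups. The feature over Srr is in both upper groups, at 0.85 and 0.89. The 4 features of lowest r are also negative within groups.

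The surroundings of the locus were read next. Of 41 other listed features within 500 kb, 6 were tested. On high-fat feed 1 of the 6 fell and 0 rose, beside 11.8% and 2.83% of all tested features. NONMMUT044237.2 over Otud7b, a deubiquitinase gene 429 kb away, fell on high-fat feed, from 3.16 ± 0.765 to 1.79 ± 0.110 FPKM (SD, n = 4 each; -0.56, SE 0.13, limma adjusted p = 0.0136). That call was lost with median-ratio scaling (-0.36, limma adjusted p = 0.107). Its correlation with Gm15441 was 0.75. The other 5 did not pass: NONMMUT044244.2 over Mtmr11 and Sf3b4 differed by -0.43, Gm42782 over the ubiquitin ligase gene Rnf115 by 0.03, Gm20632 in the histone cluster by 0.19, a second Otud7b transcript by 0.52 and NONMMUT044277.2, an intergenic one, by 1.13. In the resveratrol and metformin comparisons limma called 0 of the 6, and 0 had an unadjusted p under 0.05.

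Related pathways were read through the listed non-coding features that overlap their genes, 1 feature per gene, so a value is that of the feature and not of the messenger RNA. The lists named 177 genes, and 55 distinct features outside the locus stood for them. On high-fat feed 3 of the 55 (5.45%) rose and 4 (7.27%) fell, beside 2.83% and 11.8% of all tested features, with medians of -0.14 and -0.16. With resveratrol 1 rose and 0 fell against high-fat feed, beside 0.0674% and 0.0135%. By limma 0 were called with metformin and 0 between the drugs, where 1 and 3 of the 55 had an unadjusted p under 0.05.

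PPARα targets, the pathway that Gm15441 is known from, had features over 8 of 39 genes. On high-fat feed 1 of the 8 rose and 0 fell, beside 2.83% and 11.8% of all tested features, and the other 7 did not pass. The feature over Ppara itself had 16.2 ± 2.98 FPKM on ordinary feed and 10.5 ± 1.64 on high fat (SD, n = 4 each; -0.58, SE 0.20, limma adjusted p = 0.0585), and it passed without resveratrol library 3 (limma adjusted p = 0.0355). Under resveratrol it had 17.0 ± 4.06 and under metformin 12.9 ± 1.36 (SD, n = 4 each). The features over Cyp4a10, a fatty acid hydroxylase (-1.24, SE 0.64), and Cpt1a, the gate of fatty acid entry to mitochondria (0.05, SE 0.31), had wide errors. That over Cyp4a10 passed without ordinary-feed library 4 (-1.98, limma adjusted p = 0.022). The median of the 8 was -0.32, beside -0.16 over all features, and 5 of 8 were below 0.

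Genes of fasting and gluconeogenesis had features over 12 of 24 genes. On high-fat feed 2 of the 12 fell and 0 rose, beside 11.8% and 2.83% of all tested features. The feature over Igfbp2, which binds insulin-like growth factors and rises in fasting liver, fell from 15.5 ± 3.79 to 2.09 ± 1.28 FPKM (SD, n = 4 each; -2.47, SE 0.37, limma adjusted p = 0.00247). With resveratrol it rose against high-fat feed, to 19.6 ± 12 FPKM (SD, n = 4; 2.65, SE 0.37, limma adjusted p = 0.0139). That call did not hold without high-fat libraries 3 or 4 or resveratrol library 2 (limma adjusted p = 0.0912, 0.0666 and 0.0634). Its correlation with Gm15441 was 0.35, and -0.09 within groups. The feature over Tsc22d3, a glucocorticoid-induced gene, fell from 6.62 ± 3.47 to 1.61 ± 0.850 FPKM (SD, n = 4 each; -1.45, SE 0.44, limma adjusted p = 0.0393). That call was lost with median-ratio scaling (limma adjusted p = 0.0709) and without ordinary-feed libraries 2, 3 or 4 or high-fat libraries 2, 3 or 4 (0.0718 to 0.102). Features over Insr, Fbp1, Foxo3 and Lpin1 did not pass, and the median of the 12 was -0.24.

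Glucose-sensing genes, which include the targets of ChREBP that share Txnip's activators, had 10 features outside the locus from 28 genes. On high-fat feed 2 of the 10 rose and 0 fell, beside 2.83% and 11.8% of all tested features. The feature over Tkfc, which phosphorylates glyceraldehyde from fructose, rose from 3.80 ± 0.410 to 5.48 ± 0.826 FPKM (SD, n = 4 each; 0.43, SE 0.12, limma adjusted p = 0.0281). That call was lost when the filter was 0.3 FPKM in place of 1 (limma adjusted p = 0.0576), and without ordinary-feed libraries 2, 3 or 4 or high-fat library 4 (0.0526 to 0.0705). The features over the lipogenic genes Scd1 (-0.08, SE 0.63), Fasn (0.72, SE 0.50) and Elovl6 (0.62, SE 0.34) did not pass. The median of the 10 was 0.33, beside -0.16 over all features.

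The thioredoxin system, which Txnip protein restrains, had 7 features outside the locus from 19 genes. On high-fat feed 1 of the 7 fell and 0 rose, beside 11.8% and 2.83% of all tested features. The feature over Txn2, the mitochondrial thioredoxin, fell from 3.14 ± 0.403 to 1.55 ± 0.207 FPKM (SD, n = 4 each; -0.70, SE 0.10, limma adjusted p = 0.00247). Its correlation with Gm15441 over 16 libraries was 0.74, the highest among the 55, but 0.03 within groups. The features over Gsr, glutathione reductase (-2.62, SE 1.58), Keap1, the sensor of oxidative stress (-0.82, SE 0.31), Txnrd1, thioredoxin reductase (-0.34, SE 0.21), and the peroxiredoxin genes Prdx1 (0.06, SE 0.18) and Prdx5 (0.32, SE 0.23) did not pass. Of 21 inflammasome genes 3 had a feature, over Il1r1, Nek7 and Nfkb1. By limma 0 of them passed in any of the 4 comparisons, 0 had an unadjusted p under 0.05, and their differences on high-fat feed were -0.23 to 0.25.

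Among 15 features of other lncRNAs of liver and metabolism, 1 rose and 1 fell on high-fat feed, beside 2.83% and 11.8% of all tested features. 4833411C07Rik fell on high-fat feed, from 3.53 ± 0.674 to 1.81 ± 0.577 FPKM (SD, n = 4 each; -0.70, SE 0.17, limma adjusted p = 0.0175). This did not hold without ordinary-feed library 2 (limma adjusted p = 0.0539). Malat1, Neat1, Gas5 and Mir22hg did not pass, with differences of 0.51 (SE 0.86), -0.61 (SE 0.72), -0.12 (SE 0.16) and -0.53 (SE 0.22).

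**Figure D5:**
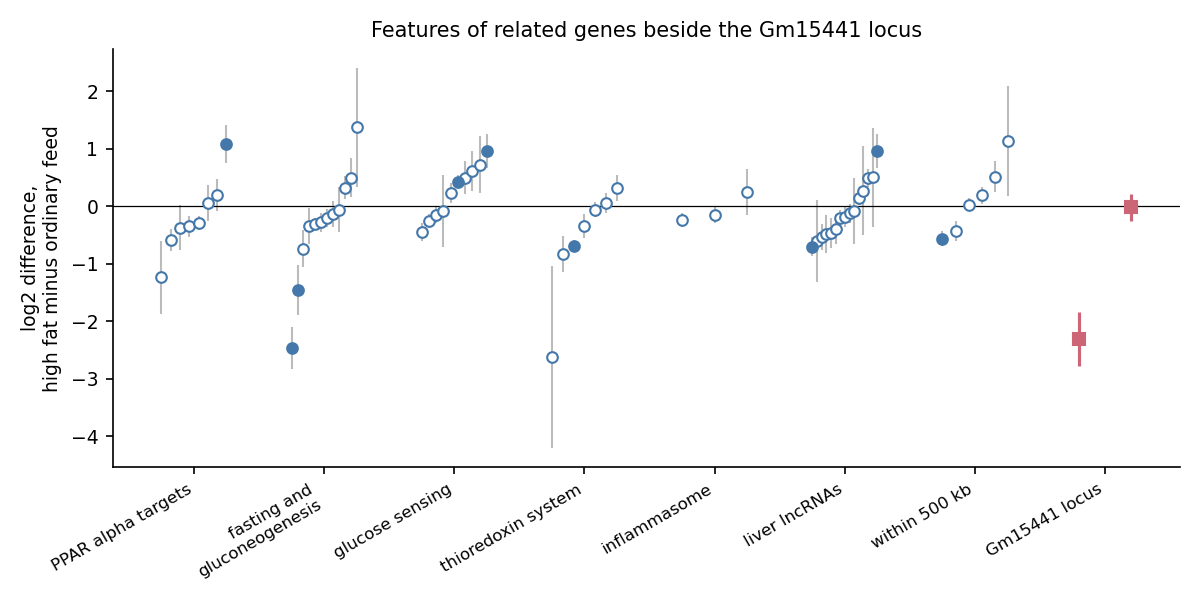
log2 difference, high-fat minus ordinary feed, of each feature of the pathway lists and of the tested features within 500 kb, with the Gm15441 locus at the right. Filled circles passed the limma test at an adjusted p under 0.05, open circles did not, squares (Gm15441 and NONMMUT044301.2) were not tested, and vertical lines are ± 1 SE. Gm15441 lies at -2.30, near the feature over Igfbp2 at -2.47, and the PPARα target features lie on both sides of 0.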

How the data were processed

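Liver RNA libraries were made with the Illumina TruSeq kit, per the labels' protocols. The authors deposited, per library, FPKM values of listed non-coding transcripts with their coordinates. The submitters' processing notes name Bowtie 0.12.2, Cufflinks 2.1.1 and GRCm38, without saying which step used which. Strand setting, annotation and filters were not stated in the sources used here. Without strand, reads of Gm15441 and of Txnip in shared exons cannot be told apart.

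From these values, Ensembl transcripts were summed per gene (6306 of 6326 matched to GENCODE M21), which left 49988 features, and 7413 with at least 1 FPKM in at least 4 libraries were tested. limma 3.58.1 in R 4.3.3 fitted log2(FPKM + 1) of all 16 libraries by group with a mean-variance trend. A fold on this scale understates the change of low features. Adjusted p-values are Benjamini-Hochberg over all tested features, called under 0.05. Exact permutation tests used SciPy 1.17.1. The fit was tested on simulated data. Depth was recovered from the FPKM of single reads. Replicates are numbered in accession order, so numbers pair nothing.

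The members and lists were chosen with earlier results of these data known. The features named are the locus transcripts, the list members called and up to 4 more of a list by mean FPKM (others named beyond these were chosen after their values were seen), the tested features within 500 kb, and the 8 highest, 4 lowest and 5 highest within-group correlations with Gm15441. Some features of the lists are counted but not reported here by name. Where several tested features overlap a listed gene, the one with the highest mean FPKM stands for it. Alternatives were another pseudocount (0.1), filter, scaling, the groups alone, unsummed transcripts and each library left out.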

Additional observations from a re-analysis of the deposited data

Results flagged for a closer look

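Dixon's test at the 95% level was run on 132 sets of 4 libraries, each of a named transcript or feature in 1 diet group. In 7 of them (5.30%) 1 library stood far from the other 3, and chance gives about 1 in 20 for independent, normally spread values. These sets share libraries, so that rate is a rough guide. A set whose other 3 libraries had 0 is flagged whatever the size of its value. The short Gm15441 transcript had 0.437 FPKM in resveratrol library 3 and 0.273 in metformin library 4, where the other 3 libraries of each group had 0. These rest on 6 and 4 reads. NONMMUT044301.2, in the 3′ UTR of Txnip, had 2.95 FPKM in ordinary-feed library 3 and 0.731 to 1.03 in the others of the group. That library also had the highest Gm15441 level, 36.2 FPKM, and whether both have 1 source was not tested.

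NONMMUT044277.2, an intergenic transcript 141 kb from the locus, had 8.32 FPKM in ordinary-feed library 1 and 0 in the others of the group. NONMMUT041012.2, over Ttpal, had 8.45 FPKM in metformin library 4 and 6.07 to 6.43 in the others. NONMMUT033905.2, over Tkfc, had 4.41 FPKM in ordinary-feed library 1, with 3.52 to 3.65 in the others, and 5.70 in resveratrol library 2, with 5.20 to 5.27 in the others.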

How the results depend on the processing

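For each of the 6 comparisons, the log2 difference of Gm15441 stayed within 1 within-group SD of its value (for resveratrol against metformin, kept its direction and did not pass) under all 25 alternatives. Many of these could not move it, because a difference of group means does not depend on other features or groups. The filters, the groups alone and the removal of a library of another group are of this kind. For high fat minus ordinary feed each of them gave the main value of -2.30. Without each library in turn, high fat minus ordinary feed ranged from -2.87 to -2.03, resveratrol minus high fat from 0.42 to 0.88, metformin minus high fat from -0.41 to -0.08, resveratrol minus metformin from 0.68 to 1.13, resveratrol minus ordinary feed from -2.25 to -1.42 and metformin minus ordinary feed from -3.12 to -2.28. Under the other alternatives high fat minus ordinary feed was -2.58 to -2.03, and the limma adjusted p of resveratrol against metformin was 0.603 to 0.95 under all 25. NONMMUT044301.2 ranged from -0.15 to 0.24 for high fat minus ordinary feed.

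Counts of called features moved more, and the cause was not tested. For high fat against ordinary feed 1085 features were called (210 higher, 875 lower). The count was 274 with no filter, 721 with quantile normalization (338 higher, 383 lower), 449 with the groups alone, 813 with median-ratio scaling (447 higher, 366 lower) and 529 with that scaling and high-fat library 4 left out (311 higher, 218 lower), an alternative added after the data were seen. Leaving out a library gave 539 to 1181, where the removal of ordinary-feed library 2 gave 539, of its library 3 gave 576, and of high-fat libraries 2 and 4 gave 722 and 605. For resveratrol against high fat the 6 calls became 2 with no filter or a filter at 0.3 FPKM, 13 (3 higher, 10 lower) with median-ratio scaling or quantile normalization, and 1 to 57 without a library. For metformin the 2 calls became 4 with no filter, 8 with median-ratio scaling (1 higher, 7 lower), 7 with quantile normalization (1 higher, 6 lower), 10 with median-ratio scaling and high-fat library 4 left out, and 1 to 9 with 1 library left out. Between the drugs 0 became 2 with no filter and 0 to 1 with 1 library left out.

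The high-fat calls of the features over Igfbp2 and Txn2 held under all 24 alternatives. Those over Tsc22d3 and Tkfc were lost under 12 and 7 of 24, that of 4833411C07Rik under 4 of 23, that over Otud7b under 5 of 24, and the resveratrol call over Igfbp2 under 6 of 24. Of 52 list and neighbour features not called, 6 were called under some alternative. No paired analysis was possible because the labels give the numbers in the sample titles no meaning and name no replicate, animal, litter or day that groups share. Read numbers limit the short Gm15441 transcript (7 reads at most in a library) and NONMMUT044301.2 (19 to 80 reads).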
